A study of Mus musculus with 20 samples.

Results

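Colony-forming units-erythroid (CFU-E) are the committed red cell progenitors of the bone marrow, and the comparison of phenylhydrazine with saline in CFU-E of Mx1-Cre mice asks how their gene expression answers the loss of red cells when the splicing factor gene Srsf2 carries no engineered mutation. Phenylhydrazine (PHZ) damages haemoglobin and lyses red cells. The comparison holds 10 of the 20 libraries of the series, 5 from Mx1-Cre mice given PHZ and 5 from Mx1-Cre mice given PBS. The other 10 libraries come from Mx1-Cre mice that also carry the Srsf2 P95H/+ allele (called P95H), with 5 after PHZ and 5 after PBS. They enter the estimate of spread and the test of whether the genotypes respond differently. Mx1-Cre is shared by all 4 groups. It places the Cre recombinase under a promoter that interferon switches on. The sources used here do not give the age or strain of the mice, or whether and when Cre was induced. PHZ went under the skin, at a dose of 30 mg/kg, first on day 0 and again on day 1, PBS was the matched injection, and the sort followed on day 4. The gate took live, lineage-negative, c-Kit-high cells with CD105 on the surface and without Sca-1, CD41, CD16/32 or CD150. The library names give every sample a different animal number, so the spread within a group is a spread between mice.

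When red cells are lost, the kidney releases erythropoietin (EPO), which binds its receptor on CFU-E, activates the kinase JAK2 and the transcription factor STAT5, and keeps these cells alive while they divide. CFU-E divide rapidly and import iron through the transferrin receptor before they fill with haemoglobin at later stages. Stress erythropoiesis is known to draw also on KIT, glucocorticoid and BMP signals, and anaemia lowers oxygen supply to the marrow.

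Values are normalised expression. Their form is that of TPM (transcript abundance corrected for gene length) scaled by 1 factor per library, which was inferred from the values. Every fold change is a difference of log2(value + 1), PHZ minus PBS, with its standard error (SE). A gene was called higher or lower where limma's adjusted p was under 0.05. Errors after ± are SD with n = 5 libraries per group. Libraries are numbered by replicate. Between 10364 and 10685 entries reached a value of 1 in a Mx1-Cre library. The sequencing depth behind a value cannot be read from the table, which holds no counts. The labels give only a minimum number of reads per sample.

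Genes that define the labelled cell type were well expressed in both groups. Epor, the EPO receptor gene, averaged 155 ± 11.5 in PBS and 141 ± 7.62 in PHZ, Gata1, the master factor of the red cell lineage, 234 ± 10.6 in PBS and 216 ± 17.3 in PHZ, and Klf1, which switches on red cell genes, 372 ± 25.8 in PBS and 372 ± 15.6 in PHZ. Of the genes behind the negative gates, Ly6a (Sca-1) ran from 0 to 0.624 over the 10 libraries and Slamf1 (CD150) from 0 to 0.125. Itga2b (CD41) fell from 1.66 ± 0.353 to 0.823 ± 0.189. Of the gated-in markers, Kit fell from 108 ± 27.5 to 60.6 ± 5.72 (log2 fold change -0.80, SE 0.15, adjusted p = 7.30e-04), and Eng (CD105) differed by -0.19 (SE 0.06, adjusted p = 0.028), a call lost on leaving out any of 4 libraries singly (PBS 1 or 3, PHZ 2 or 5) and with equal sums.

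PBS library 4 and PHZ library 5 stood apart from the rest of their groups. Within the 10 libraries the first principal component held 52.6% of the variance and placed PBS libraries between -28.3 and -13.7, with library 4 at the outer end, and PHZ libraries between 13.0 and 22.4, with library 5 lowest. Weights estimated from the fit were lowest for the same pair, 0.409 and 0.570. Xist was high in 3 PBS and 2 PHZ libraries and near 0 in the others, so both groups mix the sexes. Markers of granulocytes and monocytes, cells the gate should leave out, were present in all libraries. Their summed level was lowest at 442, with a median of 613 and a maximum of 927 in PBS, and lowest at 148, with a median of 191 and a maximum of 1047 in PHZ, the maximum being PHZ library 5. The summed levels, with means of 640 in PBS and 412 in PHZ, did not pass an exact two-sided permutation test (p = 0.278). The mean log2 level of the 16 markers that passed the filter differed by -0.88 between the groups (same test, p = 0.0635), and by -1.22 without PHZ library 5 (exact p = 0.00794). The part of these markers in the results below was not tested beyond a fit that holds their mean constant. In sorted bulk cells, fewer cells of a kind and less RNA per cell cannot be told apart.

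Megakaryocyte markers summed to between 17.6 and 21.8 after PBS and between 10.9 and 13.8 after PHZ. The platelet glycoprotein gene Gp9 fell from 7.23 ± 1.16 to 3.39 ± 0.877, whereas the platelet factor gene Pf4 stayed under the filter at 0 to 1.09. B and T cell markers summed to 7.56 to 15.2 after PBS and 1.05 to 3.37 after PHZ, with the T cell receptor subunit gene Cd3e at 0 in all 10 libraries. Ighm, the immunoglobulin heavy chain of B cells, fell from 2.49 ± 0.287 to 0.319 ± 0.258. Macrophage markers summed to 3.37 to 3.91 and 2.79 to 3.42, and Spic, the factor of iron-recycling macrophages, was at 0 throughout.

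**Figure D1:**
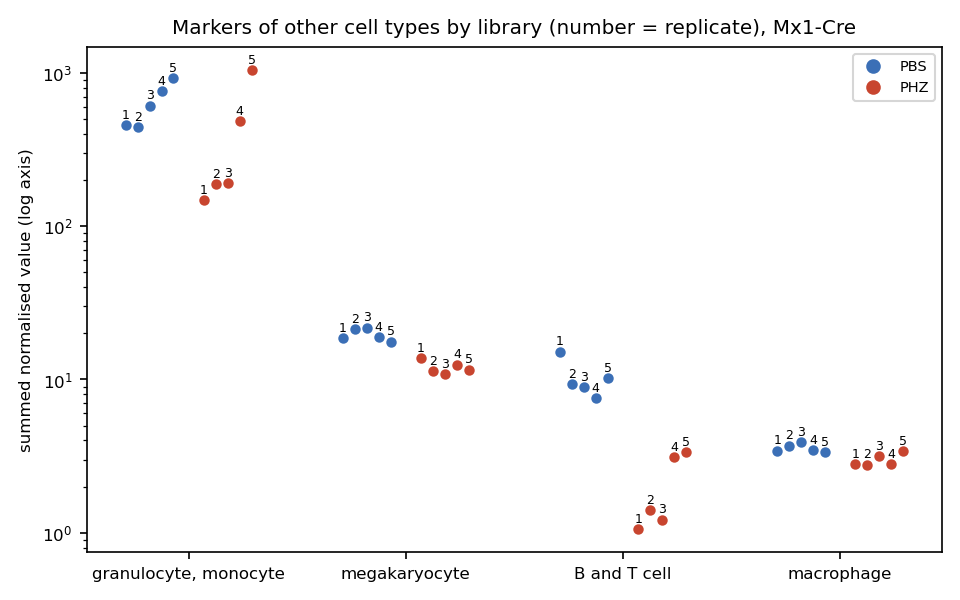
Summed normalised value (log axis) of marker genes for 4 other cell types in each Mx1-Cre library, blue for PBS and red for PHZ, with the replicate number over each point. PHZ library 5, at 1047, carries the highest granulocyte and monocyte level, while megakaryocyte and lymphoid sums of the 2 groups do not overlap.

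Of 10890 genes tested, 1856 were higher after PHZ (17.0% of those tested) and 1618 lower (14.9%), 31.9% in all. Counts given below for gene lists are to be read beside these shares. With libraries scaled to equal sums, the split was 2225 higher and 1216 lower. Most called changes were small. The median absolute log2 fold change was 0.323 over called genes and 0.145 over all genes, and 91 genes rose by more than 1 (0.836%) against 80 that fell by as much (0.735%). In 1375 genes (12.6%) every PHZ library lay above every PBS library, and in 1069 (9.82%) every PHZ library lay below. Without PBS library 4 the calls dropped to 1374 higher and 1219 lower, and with the granulocyte markers held constant to 1318 and 1070. Leaving out PBS library 4 and PHZ library 5 together, a choice made after seeing the data, gave 1410 higher and 1287 lower.

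Among the largest increases, those of cell surface and signalling genes covered a wide range of levels. Cpd, which encodes the membrane-bound carboxypeptidase D, stood at 16.2, 17.9, 19.00, 12.3 and 20.9 in PBS libraries 1 to 5 and at 143, 175, 192, 157 and 104 in PHZ libraries 1 to 5 (log2 fold change 3.08, SE 0.20, adjusted p = 3.39e-09). The groups were far apart, the lowest PHZ library being number 5. On GRCm38, Cpd (ENSMUSG00000020841) lies on chromosome 11, 76778424 to 76847018, minus strand. B3gnt7, a glycosyltransferase gene, stood at 1.002, 0.252, 0.564, 0.151 and 0.933 in PBS libraries 1 to 5 and at 10.2, 8.54, 20.4, 10.6 and 9.75 in PHZ libraries 1 to 5 (log2 fold change 3.00, SE 0.26, adjusted p = 9.63e-08). PHZ library 3 was the highest by a wide margin and no PHZ library reached down to the PBS range. Ptger3, a prostaglandin E2 receptor gene, stood at 2.51, 4.37, 2.82, 2.34 and 3.81 in PBS libraries 1 to 5 and at 22.6, 26.1, 26.4, 24.1 and 24.1 in PHZ libraries 1 to 5 (log2 fold change 2.64, SE 0.13, adjusted p = 2.25e-12). All PHZ values lay between 22.6 and 26.4. Prkcq, the gene of protein kinase C theta, rose from 1.68 ± 0.256 to 14.6 ± 2.33, App, the amyloid precursor gene, from 2.48 ± 0.931 to 16.1 ± 5.19, and Tspan14, a tetraspanin gene, from 8.74 ± 1.21 to 44.5 ± 9.71. Spata13, a guanine nucleotide exchange factor gene, went from 0.497 ± 0.0428 to 5.20 ± 0.987. Ctsc, the lysosomal protease cathepsin C that activates granule proteases, went from 4.10 ± 0.657 to 19.9 ± 4.28. In each of these 5 genes the lowest PHZ library exceeded the highest PBS library.

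Segments of T cell receptor loci also rose, while Cd3e was listed at 0 in every library. Tcrg-C1, a constant segment of the T cell receptor gamma locus, stood at 0.304, 0.362, 0.472, 0 and 0.497 in PBS libraries 1 to 5 and at 40.6, 81.5, 132, 93.2 and 77.9 in PHZ libraries 1 to 5 (log2 fold change 5.94, SE 0.27, adjusted p = 1.84e-11). PBS library 4 listed it at 0 and the highest PBS library was at 0.497, whereas the PHZ libraries lay between 40.6 and 132. Trbv13-2, a variable segment of the beta locus, rose from 1.24 ± 0.394 to 8.19 ± 2.59. Both segments were singled out after their values were seen, and they rose in P95H by 5.80 and 1.90.

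The largest decreases included signalling and lysosomal genes. Gnaq, the alpha subunit of the Gq protein that couples receptors to phospholipase C, stood at 5.71, 4.94, 5.17, 6.09 and 4.96 in PBS libraries 1 to 5 and at 0.595, 0.617, 0.619, 0.704 and 0.584 in PHZ libraries 1 to 5 (log2 fold change -1.97, SE 0.09, adjusted p = 1.06e-12). The spread within both groups was small, and no library of either group came near the other. On GRCm38, Gnaq (ENSMUSG00000024639) lies on chromosome 19, 16132831 to 16387463, plus strand. Khdrbs3, an RNA-binding protein gene, stood at 12.7, 17.8, 19.3, 21.5 and 14.1 in PBS libraries 1 to 5 and at 4.62, 6.50, 4.38, 2.37 and 4.44 in PHZ libraries 1 to 5 (log2 fold change -1.75, SE 0.22, adjusted p = 1.03e-05). Hhex, a homeobox factor of early blood cells, fell from 11.3 ± 3.53 to 2.89 ± 1.26, and Galns, a lysosomal sulfatase gene, from 17.00 ± 2.24 to 4.84 ± 1.40. Slc22a3, an organic cation transporter gene, fell from 7.14 ± 1.27 to 1.76 ± 0.468. Fhdc1, a formin gene, fell from 5.84 ± 3.84 to 1.02 ± 0.386, with PBS library 4 at 12.6 and the other PBS libraries between 3.14 and 5.13. The plot of leading genes shows each library.

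**Figure D2:**
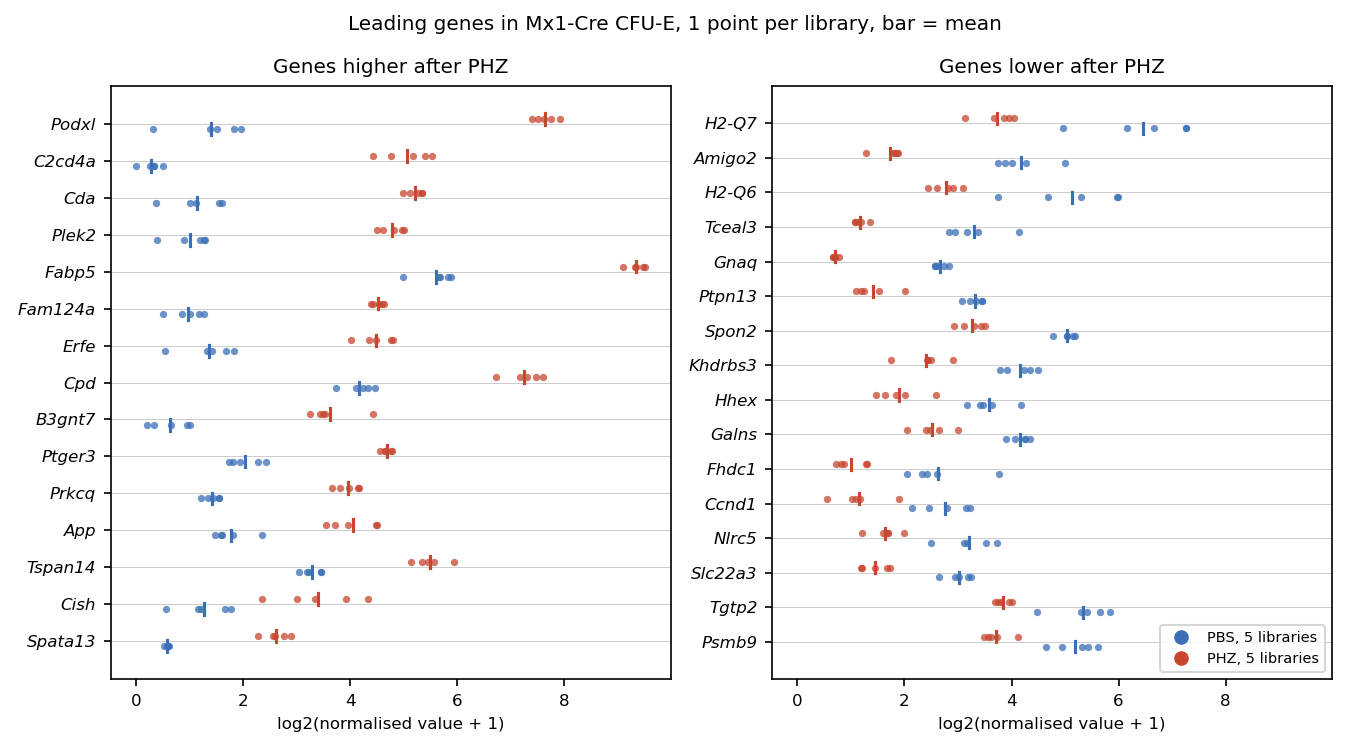
Levels as log2(value + 1) of genes with the largest increases (left) and the largest decreases (right) among called genes with a group mean of at least 5, with 1 point per library and a bar at the mean of 5. The PBS points (blue) and PHZ points (red) of each gene shown do not overlap.

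Calls in the EPO list went both ways. Of 13 feedback and target genes of EPO signalling (a division by role made after values were seen), 12 rose (9 to 11 on leaving out a library), while Bcl2l1, which encodes the survival protein BCL-XL, was at 10.3 ± 0.910 in PBS and 10.2 ± 1.11 in PHZ (log2 fold change -0.02, SE 0.09, adjusted p = 0.858). The receptor chain went the other way: of Epor, Jak2, Stat5a and Stat5b, none rose and 2 fell. Over the whole list of 26 genes tested, 12 rose (46.2%, against 17.0% of all genes) and 5 fell (19.2%, against 14.9%, and 8 without PBS library 5). The first division holds all 12 that rose, while Dusp6 and other members that fell are in neither division. The list's median was 0.05 against -0.002 over all genes. Without PBS library 4 the list's median was -0.01.

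Cish, a STAT5 target that dampens cytokine receptors, carries STAT-type letters at its RefSeq start. Its promoter window from 250 bases before to 50 after the start, at chr9:107296409-107296708 on the plus strand of GRCm38.p6 (RefSeq), is shown because Cish is a feedback inhibitor of the pathway and its level rose steeply. Matches to TTCNNNGAA, the core spacing bound by STAT dimers, are in capitals. The pattern, with N for any base, is the same on both strands.
Cish: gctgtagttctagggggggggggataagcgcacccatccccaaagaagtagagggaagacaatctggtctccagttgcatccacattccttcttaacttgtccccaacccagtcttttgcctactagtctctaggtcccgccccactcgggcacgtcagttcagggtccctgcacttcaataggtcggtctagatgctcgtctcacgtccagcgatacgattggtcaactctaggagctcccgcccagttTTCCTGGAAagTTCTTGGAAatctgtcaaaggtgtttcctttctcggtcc
The window holds 2 matches. The same letters occur in 673 of 8261 tested genes with a window (8.15%), in 2 of 20 of the EPO list (Cish and the adaptor gene Gab1) and in 8 of 60 of the genes called higher by more than 1 (13.3%) and 8 of 58 of those called lower by more than 1 (13.8%). A match describes letters only.

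Cish stood at 2.17, 1.22, 1.32, 0.464 and 2.41 in PBS libraries 1 to 5 and at 14.2, 7.0, 18.99, 9.16 and 4.09 in PHZ libraries 1 to 5 (log2 fold change 2.12, SE 0.34, adjusted p = 1.68e-04). PHZ library 5 was the lowest of its group and PBS library 4 the lowest of all, yet the groups did not overlap. Osm, the cytokine oncostatin M and a STAT5 target, stood at 6.52, 4.61, 4.71, 2.76 and 7.16 in PBS libraries 1 to 5 and at 26.7, 10.9, 21.6, 12.3 and 11.6 in PHZ libraries 1 to 5 (log2 fold change 1.48, SE 0.26, adjusted p = 2.86e-04). Irs2, an adaptor of insulin and EPO receptors, rose from 7.02 ± 2.97 to 18.3 ± 6.21 (log2 fold change 1.28, SE 0.30, adjusted p = 0.00383), although PHZ library 5 at 8.66 fell inside the PBS range. Trib3, a stress-induced pseudokinase gene, rose from 0.399 ± 0.180 to 1.07 ± 0.348. Pim1, a STAT5-induced kinase gene, moved by 0.82 (SE 0.29, adjusted p = 0.0371), a call lost on leaving out any of 5 libraries singly (PBS 2 or 4, PHZ 1, 3 or 4). Jak2 stood at 51.8, 46.9, 56.6, 57.3 and 45.5 in PBS libraries 1 to 5 and at 37.7, 36.4, 33.7, 36.4 and 31.04 in PHZ libraries 1 to 5 (log2 fold change -0.54, SE 0.10, adjusted p = 4.16e-04). Every PHZ library was below every PBS library. Stat5b fell by 0.23 (adjusted p = 0.0145), a call lost when libraries were scaled to equal sums (adjusted p = 0.0581). Stat5a (-0.14, adjusted p = 0.0836) and Epor (-0.13, adjusted p = 0.0993) did not pass.

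Of 19 genes of KIT, glucocorticoid and BMP signalling, 3 rose and 6 fell (median -0.18, or -0.11 without PBS library 4 and -0.09 without PHZ library 2). With the granulocyte markers held constant, 0 rose and 5 fell. Kit, the receptor for stem cell factor, stood at 109, 93.6, 87.7, 155 and 94.9 in PBS libraries 1 to 5 and at 56.2, 58.96, 65.6, 54.8 and 67.7 in PHZ libraries 1 to 5. PBS library 4 was the highest of all, and the lowest PBS library still exceeded the highest PHZ library. On GRCm38, Kit (ENSMUSG00000005672) lies on chromosome 5, 75574916 to 75656722, plus strand. Dusp6, a member of the EPO list, encodes the phosphatase that turns off ERK downstream of such receptors. Its level fell from 1.82 ± 0.322 to 0.463 ± 0.258 (log2 fold change -0.96, SE 0.13, adjusted p = 1.14e-05). The glucocorticoid receptor gene Nr3c1 fell from 32.99 ± 2.72 to 27.1 ± 2.13 (log2 fold change -0.28, SE 0.07, adjusted p = 0.00386), while its target Tsc22d3 was at 6.87 ± 3.63 in PBS and 7.57 ± 1.36 in PHZ (adjusted p = 0.483). Without PBS library 4, Tsc22d3 passed as higher (0.44, adjusted p = 0.0424). On the TGF-beta side, Ltbp1, which stores latent TGF-beta, fell from 2.66 ± 0.681 to 0.873 ± 0.142 and the receptor gene Tgfbr2 from 1.76 ± 0.0644 to 1.01 ± 0.168. Bmpr1a, the BMP receptor gene, stayed under the filter with at most 0.391 in any of the 10 libraries.

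Among transcription factors of early progenitors, 1 of 12 rose and 4 fell (median -0.27, or -0.18 without PBS library 4). Myb, which sustains progenitor proliferation, stood at 209.5, 169.9, 179.7, 246 and 183 in PBS libraries 1 to 5 and at 126, 113, 139, 109 and 128 in PHZ libraries 1 to 5 (log2 fold change -0.67, SE 0.10, adjusted p = 2.98e-05). Gata2, the GATA factor that precedes GATA1, stood at 16.7, 12.3, 14.2, 18.3 and 18.4 in PBS libraries 1 to 5 and at 8.28, 8.30, 9.57, 7.49 and 8.04 in PHZ libraries 1 to 5 (log2 fold change -0.85, SE 0.15, adjusted p = 2.96e-04). In both genes the groups did not overlap. Of 19 erythroid factors, 4 rose (21.1%, against 17.0% of all genes) and 2 fell (10.5%, against 14.9%). Tal1, the bHLH factor of the erythroid complex, rose from 76.6 ± 12.9 to 114 ± 13.4 (log2 fold change 0.58, SE 0.13, adjusted p = 0.00164), while its partners Lmo2 and Ldb1 fell from 452 ± 36.4 to 353 ± 20.03 and from 421 ± 42.3 to 346 ± 14.2. Gata1 (-0.11, adjusted p = 0.23) and Klf1 (-0.00, adjusted p = 0.991) did not pass, nor did Myc (-0.25, adjusted p = 0.141).

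Genes of the D-type cyclins, which open the G1 phase, moved in opposite directions. Ccnd1 stood at 5.91, 3.41, 4.52, 7.85 and 8.33 in PBS libraries 1 to 5 and at 0.466, 1.03, 2.745, 1.13 and 1.26 in PHZ libraries 1 to 5 (log2 fold change -1.60, SE 0.20, adjusted p = 7.38e-06). Ccnd2 stood at 17.6, 20.5, 15.9, 13.9 and 21.1 in PBS libraries 1 to 5 and at 42.6, 47.1, 65.3, 54.1 and 48.9 in PHZ libraries 1 to 5 (log2 fold change 1.48, SE 0.16, adjusted p = 2.07e-06). Neither gene's groups overlapped, and the direction was opposite. Ccnd3, the most abundant D-type cyclin gene of these cells at 268 ± 43.4 in PBS and 195 ± 23.2 in PHZ, did not pass (-0.45, SE 0.18, adjusted p = 0.0631). Cdc25a, the phosphatase that releases CDK2, rose from 57.9 ± 3.66 to 76.9 ± 6.82 (log2 fold change 0.40, SE 0.08, adjusted p = 5.33e-04). Cdkn1a, the inhibitor p21, rose from 0.931 ± 0.463 to 2.23 ± 0.388, a call lost without PBS library 4 (adjusted p = 0.0558). In the G1 list as a whole, 5 of 19 rose and 5 fell, but the higher calls were 3 without PBS library 4 and the lower calls 1 to 3 on leaving out any single library other than PBS 5.

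Nucleotide synthesis and the replication machinery differed within the list, by a division drawn with results known. Of 8 enzymes of de novo purine and pyrimidine synthesis, 7 rose (5 to 7 on leaving out a library), with a median of 0.27. Cad, which starts pyrimidine synthesis, stood at 136, 137, 123, 102 and 133 in PBS libraries 1 to 5 and at 166, 185, 177, 169 and 155 in PHZ libraries 1 to 5 (log2 fold change 0.44, SE 0.07, adjusted p = 1.45e-04). Every PHZ library was above every PBS library. Ppat, which starts purine synthesis, rose from 120.2 ± 12.1 to 152 ± 4.49 and Gart from 199.8 ± 18.5 to 255 ± 6.90, whereas Paics, singled out as the member that did not pass, was at 379 ± 22.8 in PBS and 416 ± 10.2 in PHZ (adjusted p = 0.0785). Of 36 genes of the replication machinery, 2 rose and 6 fell (median -0.05), and the number lower ranged from 1 with equal sums to 11 under quantile normalization and from 1 to 5 on leaving out a library. Rrm2, which makes deoxynucleotides, rose by 0.31 (adjusted p = 0.0174), a call lost without PBS library 4 (adjusted p = 0.0629). Of 45 mitosis genes, 7 rose (15.6%, against 17.0% of all genes) and 6 fell (13.3%, against 14.9%), with a median of 0.01. Only 1 rose without PBS library 4 or without PBS library 5, and 2 fell without PBS library 3 or PHZ library 2 or 3. In the same list, Mki67, the proliferation marker Ki-67, was at 310.0 ± 32.8 in PBS and 343 ± 58.6 in PHZ (adjusted p = 0.442).

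Of 21 survival genes, 1 rose (4.76%, against 17.0% of all genes) and 4 fell (19.0%, against 14.9%). Birc2, an inhibitor of apoptosis, fell from 27.97 ± 2.82 to 21.6 ± 1.49, and Mcl1 was at 83.4 ± 3.13 in PBS and 83.2 ± 4.31 in PHZ (-0.00, SE 0.05). Fas, the death receptor gene that EPO represses in later erythroblasts, was under the filter with at most 0.347. Of 21 targets of p53, 3 rose (14.3%) and 4 fell (19.0%), with 1 higher without PBS library 4 and 2 lower without PBS library 1 or PHZ library 3.

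The transferrin receptor gene rose, while no globin gene was called in the fit of all 20 libraries. Tfrc, the transferrin receptor, stood at 320.1, 413, 392, 365 and 340.4 in PBS libraries 1 to 5 and at 724, 704, 761, 647 and 574 in PHZ libraries 1 to 5 (log2 fold change 0.89, SE 0.12, adjusted p = 9.09e-06). PHZ library 5 was the lowest of its group and still above the PBS maximum of 413. On GRCm38, Tfrc (ENSMUSG00000022797) lies on chromosome 16, 32608920 to 32632794, plus strand. Over 23 iron genes, 5 rose (21.7%, against 17.0% of all genes) and 1 fell (4.35%, against 14.9%), with 3 higher without PBS library 4. Slc25a28 (mitoferrin 2), which brings iron into mitochondria, fell from 29.98 ± 1.27 to 22.9 ± 1.73 (log2 fold change -0.38, SE 0.07, adjusted p = 1.94e-04), and its erythroid counterpart Slc25a37 was at 56.5 ± 9.27 in PBS and 70.5 ± 15.1 in PHZ (adjusted p = 0.279). The ferritin genes Fth1 (3319.5 ± 29.5 in PBS and 3109 ± 163 in PHZ) and Ftl1 (2054 ± 155 in PBS and 2205 ± 129.7 in PHZ) did not pass.

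Of 9 haem synthesis enzymes, 1 rose and 3 fell. Cpox, the coproporphyrinogen oxidase, stood at 447, 440.4, 462, 366 and 397 in PBS libraries 1 to 5 and at 591, 560.4, 602, 594 and 527 in PHZ libraries 1 to 5 (log2 fold change 0.45, SE 0.08, adjusted p = 2.18e-04). Alas1, the general first enzyme, fell from 18.7 ± 1.28 to 14.4 ± 1.64 (log2 fold change -0.36, SE 0.07, adjusted p = 5.41e-04), Ppox fell from 148 ± 12.5 to 118 ± 8.79 and Urod from 306 ± 21.02 to 249.9 ± 20.7, the last call being lost with the granulocyte markers held constant. The erythroid first enzyme Alas2 was at 13.9 ± 4.41 in PBS and 13.6 ± 2.52 in PHZ (adjusted p = 0.984). Flvcr1, a haem exporter gene, rose from 21.5 ± 1.41 to 28.9 ± 0.722 (log2 fold change 0.41, SE 0.07, adjusted p = 2.04e-04). Hmox1, which breaks haem down, stayed under the filter with at most 0.335.

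None of the 4 globin genes tested was called. Hba-a1 averaged 1239 ± 277 in PBS and 863 ± 175 in PHZ (-0.51, SE 0.30, adjusted p = 0.21) and Hbb-bt 400.2 ± 102 in PBS and 474 ± 88.04 in PHZ (0.26, SE 0.27, adjusted p = 0.495). The 2 alpha and the 2 adult beta globin genes are near-identical copies, so the counting could split their reads. Of 6 markers of later erythroblasts, none was called. Of 36 red cell membrane and surface genes, 8 were higher (22.2%, against 17.0% of all genes) and 5 lower (13.9%, against 14.9%). Cd24a, a surface protein that marks erythroid precursors, stood at 1004, 1179, 1008, 713 and 765 in PBS libraries 1 to 5 and at 1359.7, 1303, 1345, 1421 and 1235 in PHZ libraries 1 to 5 (log2 fold change 0.54, SE 0.11, adjusted p = 9.25e-04). Rhag, the Rh-associated channel, rose from 267 ± 13.7 to 328 ± 15.7 while Rhd, the Rh antigen, fell from 441 ± 18.6 to 324 ± 18.9. Icam4 and Kel, adhesion and blood group proteins, fell from 42.8 ± 3.27 to 31.8 ± 0.863 and from 159 ± 16.3 to 122 ± 14.4. Within each of the genes Cd24a, Rhag, Rhd and Icam4 the groups did not overlap.

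Lipid genes are set out here by synthesis and use. Of 11 genes of fatty acid synthesis, elongation and desaturation, 9 rose and none fell, with a median of 0.71. Of 7 genes of fatty acid uptake and oxidation, none rose and 4 fell, with a median of -0.30. The division by role was made after values were seen, and over the whole list of 33 genes 14 rose (42.4%) and 6 fell (18.2%). Fabp5, a fatty acid-binding protein gene, had the list's largest rise (log2 fold change 3.74). It is in neither division, as are other called members of the list. Without PBS library 4, 8 and 4 members of the 2 divisions were called in the same directions.

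Scd2, a stearoyl-CoA desaturase, stood at 142, 52.6, 92.1, 41.7 and 100.2 in PBS libraries 1 to 5 and at 265, 300.2, 431, 336 and 227 in PHZ libraries 1 to 5 (log2 fold change 1.95, SE 0.29, adjusted p = 1.10e-04). PBS values varied widely, from library 4 up to library 1, but ended below the lowest PHZ value. On GRCm38, Scd2 (ENSMUSG00000025203) lies on chromosome 19, 44293674 to 44306864, plus strand. Acaca, which makes malonyl-CoA, stood at 21.2, 21.04, 20.04, 15.4 and 23.1 in PBS libraries 1 to 5 and at 34.5, 36.6, 38.1, 35.4 and 28.7 in PHZ libraries 1 to 5 (log2 fold change 0.76, SE 0.08, adjusted p = 9.62e-07). Elovl6, which elongates palmitate, stood at 13.2, 10.8, 11.1, 7.81 and 11.6 in PBS libraries 1 to 5 and at 18.8, 22.2, 26.2, 20.9 and 19.3 in PHZ libraries 1 to 5 (log2 fold change 0.92, SE 0.11, adjusted p = 1.99e-06). In each of the 3 genes the groups did not overlap, and PBS library 4 was the lowest. Acly, which supplies acetyl-CoA, rose from 100.3 ± 10.6 to 135 ± 5.20, Elovl5 from 22.3 ± 3.68 to 37.99 ± 4.66 and Fasn, the fatty acid synthase, from 47.2 ± 8.01 to 77.8 ± 13.6. Fasn in PHZ library 5, at 54.7, lay under the highest PBS library. Scd1 rose by 0.86 (adjusted p = 0.044), a call lost on leaving out any of 7 libraries singly (PBS 1, 2, 4 or 5, PHZ 1, 3 or 4), although its groups did not overlap.

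On the side of use, Cpt1a, the enzyme that admits fatty acids to mitochondria and that malonyl-CoA inhibits, stood at 43.04, 54.9, 47.6, 62.3 and 39.1 in PBS libraries 1 to 5 and at 25.6, 25.8, 28.6, 24.98 and 29.3 in PHZ libraries 1 to 5 (log2 fold change -0.84, SE 0.10, adjusted p = 3.54e-06). All PHZ libraries lay within 25.0 to 29.3, under the lowest PBS library. On GRCm38, Cpt1a (ENSMUSG00000024900) lies on chromosome 19, 3322334 to 3385733, plus strand. Cd36, a fatty acid translocase, fell from 10.03 ± 2.54 to 5.65 ± 0.656 (log2 fold change -0.71, SE 0.14, adjusted p = 7.44e-04). Acadl, a long-chain acyl-CoA dehydrogenase, fell from 143 ± 5.61 to 105 ± 10.8 and Cpt2, the inner-membrane partner of Cpt1a, from 27.6 ± 0.877 to 22.2 ± 1.36. Acadm (-0.11), Hadha (-0.05) and Hadhb (0.13), later enzymes of the same pathway, did not pass (adjusted p from 0.0568 to 0.453).

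Most serine and folate genes rose. In the one-carbon list, 16 of 25 genes rose and 1 fell, with a median of 0.25. The 7 genes of serine synthesis and the mitochondrial folate branch were all higher, by 0.24 to 1.42. Mthfd2, the mitochondrial folate dehydrogenase, stood at 50.8, 52.2, 51.8, 31.9 and 57.6 in PBS libraries 1 to 5 and at 131, 121, 144, 135 and 119.9 in PHZ libraries 1 to 5 (log2 fold change 1.42, SE 0.13, adjusted p = 1.05e-07). The groups were well apart, with PHZ library 5 the lowest of its group and PBS library 4 the lowest of all. On GRCm38, Mthfd2 (ENSMUSG00000005667) lies on chromosome 6, 83305691 to 83325908, minus strand. Shmt2, which takes the one-carbon unit from serine, stood at 176, 176, 164, 134 and 190.2 in PBS libraries 1 to 5 and at 266, 274, 313, 275 and 302 in PHZ libraries 1 to 5 (log2 fold change 0.77, SE 0.07, adjusted p = 1.29e-07). Phgdh and Psat1, the first enzymes of serine synthesis, rose from 88.5 ± 13.96 to 144 ± 18.1 and from 77.8 ± 8.91 to 136 ± 12.8. Psph, which completes serine synthesis, rose by 0.24, a call lost without PBS library 4 or without PHZ library 5. Genes of folate uptake rose too. Folr1, a folate receptor gene, stood at 3.29, 4.86, 4.67, 3.77 and 5.31 in PBS libraries 1 to 5 and at 8.61, 13.1, 14.1, 11.1 and 7.77 in PHZ libraries 1 to 5 (log2 fold change 1.13, SE 0.14, adjusted p = 5.41e-06). Slc19a1, the reduced folate carrier, rose from 71.7 ± 9.46 to 111 ± 12.1. Tyms, which uses folate for thymidylate, was at 168 ± 7.97 in PBS and 156 ± 8.96 in PHZ (adjusted p = 0.181).

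Amino acid transporters rose in 11 of 20 cases and fell in 3 (median 0.25), with 7 higher without PBS library 4. Slc7a5, the large neutral amino acid transporter LAT1, stood at 133, 141, 128, 100.4 and 128 in PBS libraries 1 to 5 and at 176, 204, 222, 182 and 198 in PHZ libraries 1 to 5 (log2 fold change 0.64, SE 0.09, adjusted p = 2.28e-05). Slc7a1, the arginine and lysine transporter, stood at 43.5, 50.96, 46.2, 30.1 and 43.3 in PBS libraries 1 to 5 and at 71.2, 77.4, 80.1, 66.3 and 64.3 in PHZ libraries 1 to 5 (log2 fold change 0.75, SE 0.11, adjusted p = 3.95e-05). In both genes PBS library 4 was the lowest and the groups did not overlap. Slc38a1, a glutamine transporter, rose from 61.4 ± 7.85 to 102 ± 9.23, Slc1a4, a neutral amino acid exchanger, from 5.66 ± 1.57 to 10.03 ± 0.589, and Slc7a6 from 0.613 ± 0.196 to 4.33 ± 1.16. Slc38a9, the lysosomal arginine sensor that signals to mTORC1, fell from 34.96 ± 7.16 to 20.5 ± 2.94 (log2 fold change -0.73, SE 0.15, adjusted p = 0.00104). Slc7a11, the cystine transporter, was under the filter with at most 0.258.

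In the pentose phosphate pathway, 6 of 14 genes were higher and 2 lower. Its oxidative enzymes G6pdx and Pgd rose from 82.3 ± 9.06 to 107 ± 8.35 and from 96.9 ± 9.01 to 122 ± 7.55. Pgls, whose enzyme acts between them in the oxidative arm, fell (log2 fold change -0.32). Prps1, which makes the ribose donor for nucleotides, rose from 117 ± 6.36 to 150.0 ± 9.42. Taldo1, a transaldolase of the non-oxidative arm, fell from 620.4 ± 22.7 to 510.5 ± 40.6 (log2 fold change -0.28, SE 0.06, adjusted p = 0.00142), and Tkt, the transketolase, did not pass (0.13, adjusted p = 0.0881). The 4 polyamine synthesis enzymes rose, by 0.25 to 0.60. Srm, the spermidine synthase, stood at 263, 259, 236, 183 and 269 in PBS libraries 1 to 5 and at 344, 348, 403, 335 and 386 in PHZ libraries 1 to 5 (log2 fold change 0.60, SE 0.13, adjusted p = 0.0017). Of 5 genes of polyamine breakdown and antizymes, 3 fell: Oaz1, Oaz2 and Sat1. Oaz1, which targets ornithine decarboxylase for destruction, fell from 989 ± 47.1 to 832 ± 76.3 (adjusted p = 0.00843), and none of the 3 was called with the granulocyte markers held constant. The call of Sat1 (adjusted p = 0.0425) was also lost with equal sums and on leaving out any of 8 libraries singly (PBS 1, 2, 4 or 5, PHZ 1 to 4). Atp13a3, a polyamine transporter gene, rose from 107 ± 9.62 to 166 ± 24.6.

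**Figure D3:**
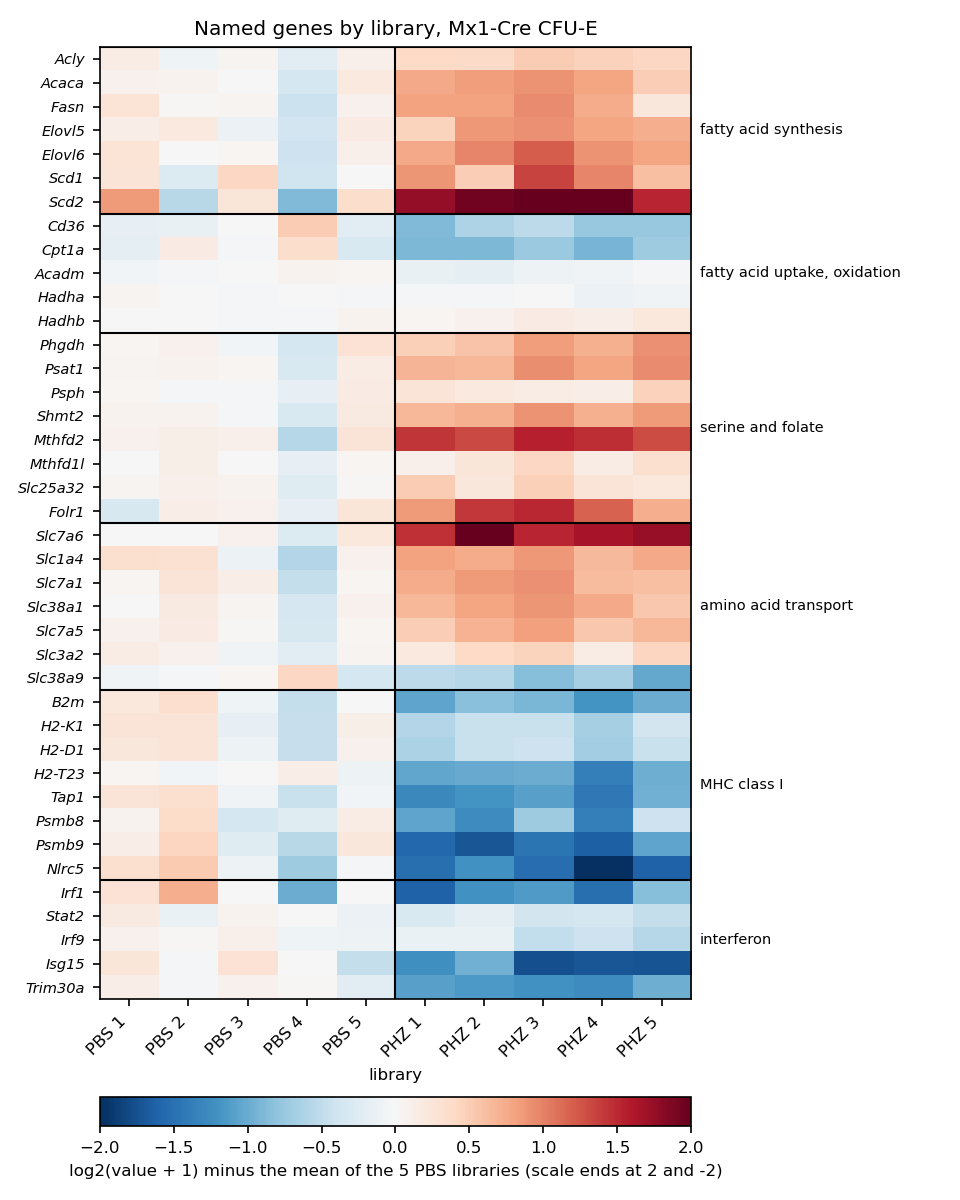
Each cell is log2(value + 1) of a gene in a library minus the mean of the 5 PBS libraries, blue for lower and red for higher, with colours ending at 2 and -2. Rows are grouped by role. PBS library 4 is the bluest PBS column in most synthesis, serine and transport rows, Folr1 and Slc38a9 being exceptions, and the antigen and interferon rows turn blue after PHZ.

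Protein quality control showed an uneven rise, by divisions drawn with results known. Of 17 subunits of the proteasome's regulatory particle, 11 rose, with a median of 0.18, and of 14 subunits of its constitutive core none was called, with a median of 0.04. Psmd3, a regulatory subunit, stood at 229, 225, 234, 184 and 231 in PBS libraries 1 to 5 and at 269, 249, 287, 274 and 281 in PHZ libraries 1 to 5 (log2 fold change 0.30, SE 0.07, adjusted p = 0.00143). Every PHZ library was above every PBS library. Among 32 chaperone genes, 13 rose and 1 fell, with 8 higher without PBS library 4, PHZ library 3 or PHZ library 5. Hspd1, the mitochondrial chaperonin HSP60, stood at 1080.2, 1036, 967, 885 and 1191 in PBS libraries 1 to 5 and at 1309, 1429.9, 1508, 1367 and 1429.9 in PHZ libraries 1 to 5 (log2 fold change 0.45, SE 0.08, adjusted p = 2.27e-04). Hsp90aa1 rose from 1883 ± 137 to 2269 ± 118, and Hspa8, the constitutive HSP70, did not pass (0.26, adjusted p = 0.0717) though its groups did not overlap.

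Genes of the hypoxia response rose in 11 of 25 cases and fell in 3 (median 0.18). Vegfa, the angiogenic growth factor, stood at 5.85, 6.02, 7.16, 5.62 and 7.76 in PBS libraries 1 to 5 and at 11.3, 11.3, 11.9, 11.2 and 9.93 in PHZ libraries 1 to 5 (log2 fold change 0.70, SE 0.09, adjusted p = 5.79e-06). The groups did not overlap, with PHZ library 5 the lowest after PHZ. Bhlhe40, a repressor induced by HIF, rose from 0.382 ± 0.0874 to 2.04 ± 0.292 and Egln1, the oxygen sensor PHD2, from 13.9 ± 0.738 to 18.1 ± 1.06. Hif1a itself rose from 8.81 ± 0.953 to 11.6 ± 1.48 (log2 fold change 0.36, SE 0.10, adjusted p = 0.00661). Ddit4, an inhibitor of mTORC1, and Pfkfb4, a glycolytic regulator, fell from 5.47 ± 1.72 to 2.88 ± 0.606 and from 7.45 ± 2.26 to 4.17 ± 0.471. Bnip3, a mitophagy gene of the same response, was at 5.13 ± 1.116 in PBS and 5.25 ± 1.04 in PHZ (adjusted p = 0.903).

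Of 32 antioxidant genes, 5 were higher (15.6%, against 17.0% of all genes) and 8 lower (25.0%, against 14.9%). With the granulocyte markers held constant, 4 were lower. Txnrd1, the cytosolic thioredoxin reductase, stood at 58.9, 63.5, 58.3, 33.6 and 64.7 in PBS libraries 1 to 5 and at 95.7, 96.8, 105, 103 and 95.7 in PHZ libraries 1 to 5 (log2 fold change 0.86, SE 0.14, adjusted p = 1.45e-04). PBS library 4 was the lowest, and the groups did not overlap. Gss, which completes glutathione, rose from 30.9 ± 2.70 to 42.8 ± 2.40. Sod1, the cytosolic superoxide dismutase, stood at 1027, 1054, 1117, 1246 and 1149 in PBS libraries 1 to 5 and at 806, 725, 766, 793 and 934 in PHZ libraries 1 to 5 (log2 fold change -0.48, SE 0.08, adjusted p = 1.02e-04). Nqo1, a quinone reductase often read as an NRF2 target, fell from 29.1 ± 2.11 to 23.9 ± 1.55, and Gclm, another such target, was at 247 ± 12.98 in PBS and 246 ± 12.6 in PHZ.

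Antigen presentation and interferon genes had the lowest medians among the lists that do not mark another cell type. Of 24 genes of MHC class I and antigen processing, 19 were lower and 3 higher, with a median of -0.54. The 3 that rose, Calr, Canx and Pdia3, encode folding proteins of the endoplasmic reticulum that also serve other glycoproteins, and the calls of Canx and Pdia3 were lost without PBS library 4. Interferon signalling and target genes, 34 in all, were lower in 19 cases and higher in 3 (median -0.46). The numbers lower were 15 and 14 with the granulocyte markers held constant. Granulocyte and lymphoid marker sums were also lower after PHZ in most libraries, and their part in these lists was not tested beyond that fit. In P95H the lower members numbered 21 (median -0.88) and 22 (median -0.63), where 17.7% of all genes were lower. MHC class I genes have close paralogs among which reads may be split.

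The promoter windows of 3 members that fell are shown for the letters GAAA, any 2 bases and GAAA (TTTC, any 2 bases and TTTC on the other strand), the core of the interferon-stimulated response element, in capitals. They come from RefSeq on GRCm38.p6, at chr4:156200769-156201068 (minus strand) for Isg15, a ubiquitin-like modifier, at chr2:122147437-122147736 (plus strand) for B2m, the light chain of MHC class I, and at chr17:36032652-36032951 (minus strand) for H2-T23, a non-classical class I heavy chain.
Isg15: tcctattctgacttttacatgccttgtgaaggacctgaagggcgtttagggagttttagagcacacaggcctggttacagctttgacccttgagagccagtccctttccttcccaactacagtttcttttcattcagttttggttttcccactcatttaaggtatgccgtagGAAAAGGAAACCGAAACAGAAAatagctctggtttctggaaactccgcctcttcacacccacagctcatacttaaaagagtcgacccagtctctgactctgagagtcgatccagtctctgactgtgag
B2m: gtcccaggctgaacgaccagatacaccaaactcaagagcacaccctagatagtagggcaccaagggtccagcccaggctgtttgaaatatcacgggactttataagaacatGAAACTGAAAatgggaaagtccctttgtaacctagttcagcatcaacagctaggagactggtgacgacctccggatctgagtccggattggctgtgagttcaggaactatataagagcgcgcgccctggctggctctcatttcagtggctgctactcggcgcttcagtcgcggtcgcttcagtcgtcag
H2-T23: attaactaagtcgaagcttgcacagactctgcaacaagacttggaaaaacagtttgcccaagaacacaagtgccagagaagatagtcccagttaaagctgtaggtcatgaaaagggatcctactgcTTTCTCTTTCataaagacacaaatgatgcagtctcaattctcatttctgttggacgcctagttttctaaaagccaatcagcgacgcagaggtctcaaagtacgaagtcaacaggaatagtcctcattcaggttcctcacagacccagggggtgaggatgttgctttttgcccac
Isg15 holds 3 overlapping matches and the others 1 each. Windows of Psmb9, Tap1 and Trim30a, which also fell, were examined and are not shown. Psmb9 and Tap1 held no match, and each Trim30a window held 1. The interferon list was drawn up as signalling and target genes, and a match describes letters only. Such letters occur in 14 of 28 genes of the interferon list with a window (50%), in 6 of 21 of the antigen list (28.6%) and in 299 of 8261 tested genes (3.62%). Among genes called lower by more than 1 they occur in 9 of 58 (15.5%) and among those called higher by more than 1 in 2 of 60 (3.33%).

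B2m stood at 2099, 2296, 1719, 1311 and 1818 in PBS libraries 1 to 5 and at 877, 1013, 964, 792 and 910.0 in PHZ libraries 1 to 5 (log2 fold change -0.999, SE 0.14, adjusted p = 4.14e-05). All PHZ libraries were below all PBS libraries, whose lowest, library 4, was at 1311. Tap1, the peptide transporter, stood at 73.5, 76.98, 58.2, 44.8 and 59.5 in PBS libraries 1 to 5 and at 24.5, 26.3, 28.4, 22.2 and 31.1 in PHZ libraries 1 to 5 (log2 fold change -1.19, SE 0.18, adjusted p = 9.37e-05). Psmb9, a catalytic subunit of the immunoproteasome, stood at 39.01, 48.2, 29.8, 23.9 and 41.9 in PBS libraries 1 to 5 and at 11.3, 10.2, 12.2, 10.8 and 16.5 in PHZ libraries 1 to 5 (log2 fold change -1.48, SE 0.22, adjusted p = 7.82e-05). Again the groups did not overlap. Of 5 immunoproteasome subunits and activators, 4 fell, Psmb10 not being called (-0.11, adjusted p = 0.613), while the constitutive core was not called. Nlrc5, the activator that drives class I transcription, stood at 10.5, 12.3, 7.66, 4.66 and 7.97 in PBS libraries 1 to 5 and at 2.25, 2.998, 2.23, 1.32 and 2.02 in PHZ libraries 1 to 5 (log2 fold change -1.57, SE 0.21, adjusted p = 1.65e-05). H2-T23 stood at 66.7, 62.5, 65.3, 71.4 and 60.6 in PBS libraries 1 to 5 and at 31.05, 32.1, 32.4, 24.6 and 32.7 in PHZ libraries 1 to 5 (log2 fold change -1.08, SE 0.14, adjusted p = 1.13e-05). H2-D1 fell from 519 ± 98.7 to 355 ± 30.8, with PBS library 4 inside the PHZ range, and H2-K1 from 432 ± 87.2 to 301 ± 24.9, the latter a call lost on leaving out any of 6 libraries singly (PBS 1, 2 or 5, PHZ 1, 3 or 4), with equal sums and with the granulocyte markers held constant.

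Isg15 stood at 9.98, 8.09, 10.4, 8.29 and 5.67 in PBS libraries 1 to 5 and at 2.99, 3.799, 1.76, 1.86 and 1.80 in PHZ libraries 1 to 5 (log2 fold change -1.47, SE 0.29, adjusted p = 7.91e-04). PBS library 5 was the lowest of its group and still above the highest PHZ library. The transcription factor gene Irf1 fell from 6.82 ± 3.04 to 2.09 ± 0.654, with PBS library 4 inside the PHZ range. Irf9 and Stat2, which act together in the complex that interferon activates, fell from 39.3 ± 2.59 to 30.8 ± 4.56 and from 15.4 ± 1.52 to 11.97 ± 0.992. Irf7 fell from 13.9 ± 2.73 to 5.28 ± 1.07 (log2 fold change -1.25, SE 0.20, adjusted p = 9.33e-05), and Trim30a, an interferon-induced regulator, from 4.97 ± 0.558 to 1.71 ± 0.214 (log2 fold change -1.14, SE 0.14, adjusted p = 3.09e-06). Of the 6 interferon receptor and kinase genes, 1 rose (Jak1) and 1 fell (Ifngr2), neither call holding with the granulocyte markers constant, and Ifnar1 was at 15.6 ± 0.966 in PBS and 14.7 ± 1.03 in PHZ (adjusted p = 0.345). The plot of lists sets these beside the other groups.

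**Figure D4:**
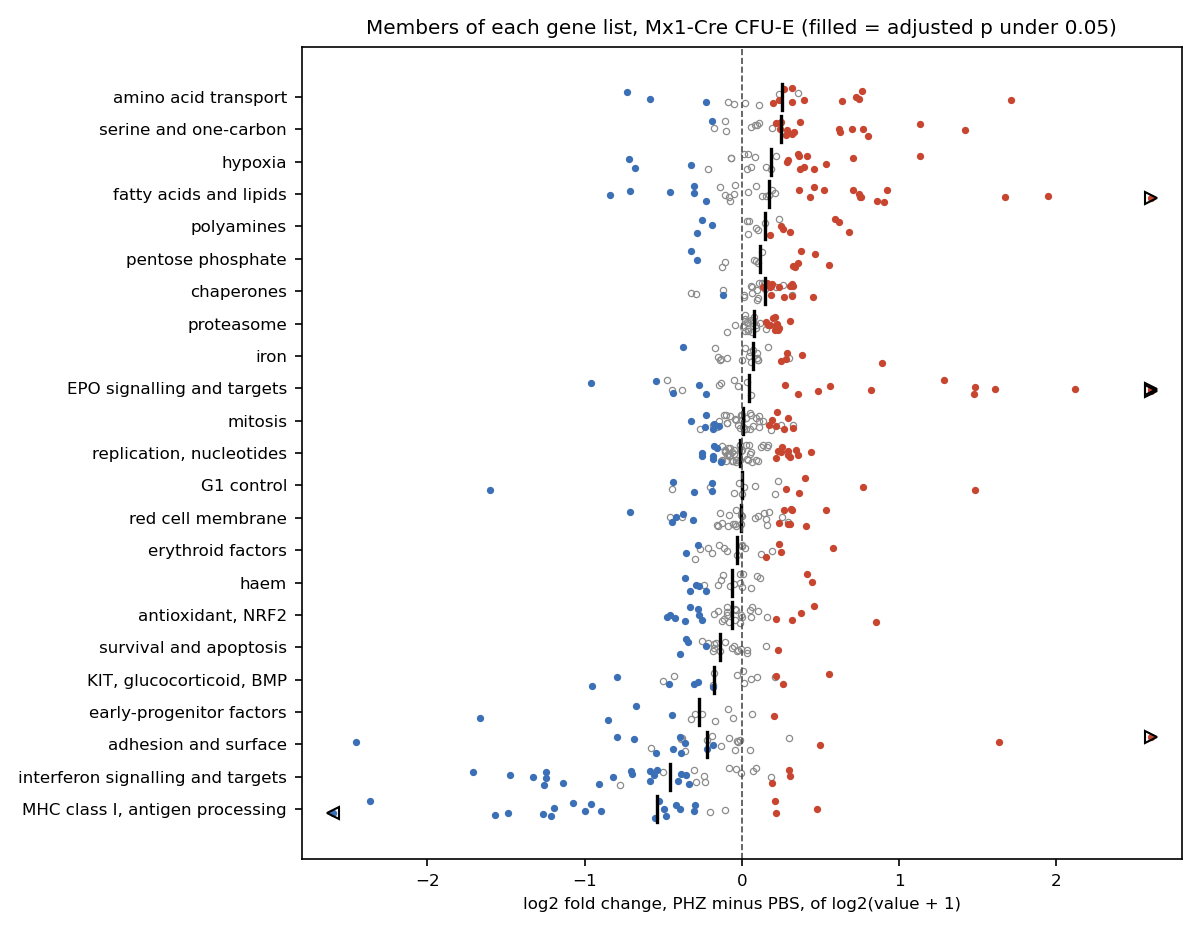
Each point is a gene's log2 fold change (PHZ minus PBS of log2(value + 1)) in a list; filled points passed the threshold (red higher, blue lower), open points did not, black bars are list medians and the dashed line is the median of all genes. 5 points beyond 2.6 on either side are drawn as arrowheads at the edge. The antigen and interferon lists lie lowest, at -0.54 and -0.46, and the amino acid and one-carbon lists highest, at 0.25.

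Surface and cytoskeletal genes showed single large changes. Cd48, a ligand of the SLAM family, stood at 8.28, 10.9, 6.68, 9.25 and 12.3 in PBS libraries 1 to 5 and at 22.9, 26.9, 32.5, 37.5 and 37.6 in PHZ libraries 1 to 5 (log2 fold change 1.63, SE 0.22, adjusted p = 2.63e-05). Itgb1, the beta-1 integrin, rose from 174 ± 13.8 to 245 ± 18.2, whereas its partner Itga4 was at 86.4 ± 12.02 in PBS and 81.95 ± 13.3 in PHZ (adjusted p = 0.642). Actb rose from 1955 ± 138 to 2671 ± 211 (log2 fold change 0.45, SE 0.06, adjusted p = 1.85e-05), and Capg, an actin capping protein, fell from 25.9 ± 2.76 to 16.96 ± 1.46. In the adhesion list, 3 of 27 genes rose and 10 fell, with 6 lower at equal sums. Optn, a receptor of selective autophagy, fell from 62.97 ± 9.14 to 35.3 ± 2.93 (log2 fold change -0.81, SE 0.09, adjusted p = 2.08e-06), and of 45 autophagy and lysosome genes 2 rose and 6 fell, with 11 lower under quantile normalization. Among 38 splicing regulators, 3 rose and 5 fell, with 3 lower without PBS library 4 and 7 higher at equal sums. Mbnl1, a regulator of alternative exons in erythroblasts, stood at 197, 173, 174, 203 and 157 in PBS libraries 1 to 5 and at 294, 236, 268, 272 and 218 in PHZ libraries 1 to 5 (log2 fold change 0.51, SE 0.09, adjusted p = 3.65e-04). Clk1, the kinase of SR proteins, fell from 110.0 ± 16.4 to 80.1 ± 7.38, and Srsf2 was at 679 ± 31.9 in PBS and 685 ± 35.6 in PHZ (0.01, adjusted p = 0.889).

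None of 15 mitochondrially encoded genes was called, and of 35 chromatin and enucleation genes 3 rose and 4 fell, with 1 lower without PBS library 4. Of 26 actin genes 4 rose (15.4%, against 17.0% of all genes) and 5 fell (19.2%, against 14.9%). Only 3 were lower without PBS library 4 or PHZ library 1, 2 or 3. Of 77 mitochondrial ribosome genes 15 rose and 2 fell (median 0.07), with 7 to 9 higher without PBS library 4 or PHZ library 3, 4 or 5, 23 at equal sums, and 7 higher against 10 lower under quantile normalization. In P95H, 0 of these 77 genes rose and 18 fell (median -0.03), where 12.6% of all genes rose and 17.7% fell. None of them passed the test of the genotype difference given below.

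In P95H mice, PHZ against PBS gave 1371 genes higher (12.6%) and 1923 lower (17.7%). The 2 comparisons share no library. Calls with the same sign in both numbered 2204, which is 63.4% of the Mx1-Cre calls and 66.9% of the P95H calls, and none had opposite signs. All 171 genes called with a change of more than 1 in Mx1-Cre had the same sign in P95H. By the test of the difference between the PHZ effects, limma called 0 genes (0.0% of those tested, smallest adjusted p = 0.798), with 577 (5.3%) at an unadjusted p under 0.05. For a typical gene the 95% interval of that difference, unadjusted for the number of genes, reached 0.244 to either side. Larger differences also went uncalled after adjustment, so the absence of calls does not show that the genotypes responded alike. The smallest p belonged to B3galt6, Cd59b, Rab21, Sac3d1, Nxt2 and Spata2, each with adjusted p = 0.798. Cd59b, a complement regulator that protects red cells, changed by -0.77 in Mx1-Cre and by -0.21 in P95H (difference 0.56, 95% interval 0.27 to 0.85). Ccnd1 changed by -1.60 and -0.80 (interval of the difference 0.21 to 1.41), Isg15 by -1.47 and -2.25 (-1.62 to 0.08), and Scd2 by 1.95 and 1.82 (-1.01 to 0.74).

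**Figure D5:**
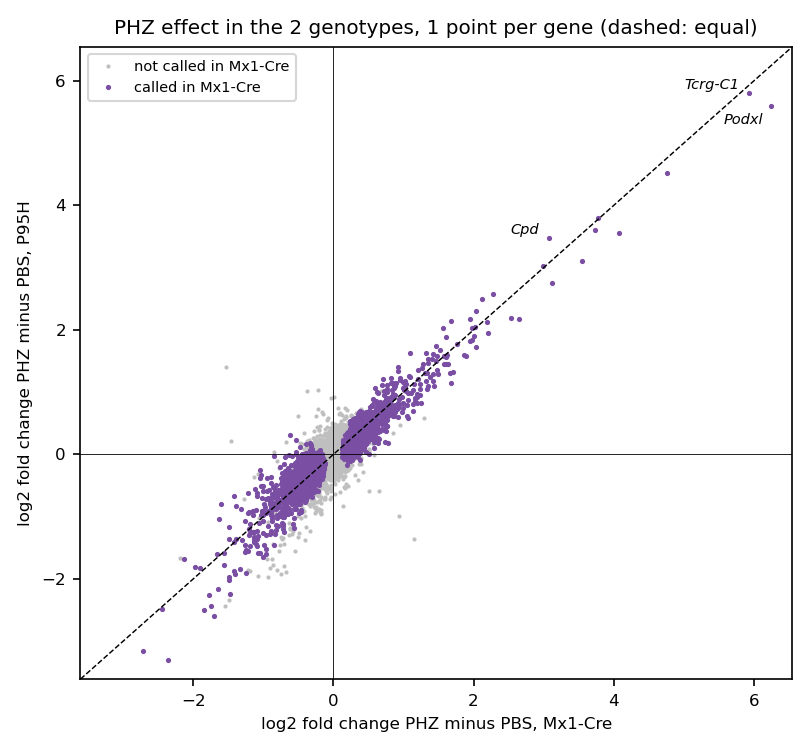
Each point is a gene, with its log2 fold change (PHZ minus PBS) in Mx1-Cre on the horizontal axis and in P95H on the vertical axis; genes called in Mx1-Cre are purple and the dashed line marks equal change. Points lie along that line, and no gene was called in both genotypes with opposite signs.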

How the data were processed

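RNA from sorted CFU-E was extracted with a PicoPure kit and sequenced as 150 bp paired ends, per the labels' protocols. The authors deposited 1 table of 37748 genes by 20 libraries in a normalised signal unit, in the form of TPM rounded and multiplied by 1 factor per library. These factors ran from 0.964 to 1.08 in Mx1-Cre, and the sources used here do not say how they were obtained. Per the submitters' processing notes, the builds named are GRCm38, mm10, GRCh37 and hg19 and the tools TopHat2 2.0.8b, TopHat, RSEM 1.2.4 and Bowtie, without a role for any. Symbols and positions came from GENCODE vM21, which matched 35986 entries. Genes entered the test if 5 or more of the 20 libraries reached a value of 1, which left 10890. The deposited signal was tested as log2(value + 1) with limma 3.58.1 in R 4.3.3 (1 mean per group over all 20 libraries, trended robust moderation, Benjamini-Hochberg adjustment over all genes tested). The procedure was tested on simulated data. The granulocyte marker mean and summed level were each compared by an exact two-sided permutation test. Promoter windows came from RefSeq.

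The members and the 37 gene lists (1015 symbols found, 872 tested) were chosen with earlier results of these data known. Divisions of these lists by role were also drawn with results known. They cover the EPO, lipid, nucleotide, replication, serine, polyamine, haem, proteasome and interferon receptor genes. Genes were named if among the 16 largest called changes in each direction at a group mean of at least 5 (without predicted genes, pseudogenes and receptor segments), if a key gene or one of up to 4 further called members of a list, if a sort marker, or if among the 6 smallest p of the genotype difference. Acadl, Acadm, Calr, Canx, Cpt2, Gab1, Hadha, Hadhb, Ifngr2, Jak1, Oaz2, Paics, Pdia3, Tcrg-C1 and Trbv13-2 fall outside this rule and were chosen after their values were seen. Alternatives covered scaling (trimmed mean of M values, quantile, equal sums), the pseudocount, the filter, moderation, library weights, the libraries fitted, covariates and leaving out each Mx1-Cre library. Results for some genes are not reported here.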

Additional observations from a re-analysis of the deposited data

Results flagged for a closer look

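Among 330 groups of 5 libraries examined for the genes named in the text other than Fabp5 and Pgls, 23 held a library whose gap to its nearest neighbour was large for the group's range. Chance gives this in about 1 in 20 groups. PBS library 4 accounted for 11 of them and PHZ library 5 for 4. PBS library 1 was the extreme value for Bhlhe40 (0.536). PBS library 2 was the extreme value for Alas1 (16.5). PBS library 3 was the extreme value for Ctsc (2.93) and Trbv13-2 (0.544). PBS library 4 was the extreme value for Flvcr1 (19.1), Psat1 (62.4), Mthfd2 (31.9), Slc7a5 (100.4), G6pdx (66.5), Psmd3 (184), Txnrd1 (33.6), Pfkfb4 (11.4), Actb (1712), Calr (479) and Pdia3 (382). PBS library 5 was the extreme value for Ppox (127). PHZ library 1 was the extreme value for Tsc22d3 (5.27). PHZ library 3 was the extreme value for B3gnt7 (20.4). PHZ library 4 was the extreme value for H2-T23 (24.6). PHZ library 5 was the extreme value for Itga4 (58.6), Mki67 (243), Oaz2 (26.8) and Fasn (54.7). The values are normalised expression, and the cause of these extremes was not tested.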

How the results depend on the processing

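The number of genes higher after PHZ, 1856, ranged from 1318 to 2225 over the settings other than leaving out a library, and the number lower, 1618, from 1070 to 2218. The latter fell to 1070 with the granulocyte marker mean held constant, where the cause was not tested. Leaving out each Mx1-Cre library in turn gave 1374 to 1802 genes higher and 1219 to 1686 lower, the lowest of both without PBS library 4. Called list members numbered 338, with 265 to 338 on leaving out a library. No gene passed the genotype difference, 0 to 0 on leaving out a library, and 1 gene passed with no filter on low values. The granulocyte marker mean differed by -0.88 (exact p = 0.0635), with a range of -1.22 to -0.68 on leaving out a library. It passed at -1.22 without PHZ library 5 (exact p = 0.00794) and at -1.13 without PBS library 4 and PHZ library 5 (exact p = 0.0286), the latter chosen after seeing the data. Replicate numbers are shared between groups, but the labels do not say that they pair mice. Deviations of same-numbered libraries correlated at -0.18 to 0.22, over 0.1 in 3 of 5 pairs. With the replicate block the calls were 1880 higher and 1699 lower. Among the genes named in the text (Fabp5 and Pgls not examined), H2-K1 did not pass in that fit (adjusted p = 0.0503), and Ccnd3 (adjusted p = 0.0410) and Hadhb (adjusted p = 0.0393) did. Of the genes named in the text, again without Fabp5 and Pgls, none that passed changed sign under the settings run, while 11 that did not pass took values on both sides of 0.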

Other observations

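Depth cannot be read from the table, so no counting interval accompanies a value, and genes near the filter are less certain than their SE shows. The log2(value + 1) scale understates changes of genes with low values. With 5 mice a group, the unadjusted 95% interval of a genotype difference reached 0.244 to either side for a typical gene, and larger differences also went uncalled after adjustment. Megakaryocyte and lymphoid marker sums did not overlap between the groups. The granulocyte marker mean was lower after PHZ but did not pass with all 10 libraries (exact permutation test, p = 0.0635). The part of these markers in the changes was not tested beyond the fit that holds the granulocyte marker mean constant. The gene lists carry no test of their own, since they were chosen with results known.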
